A study of Mus musculus with 51 samples.

Results

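The genes described here are 9 mouse histone genes outside the replication-dependent clusters: the linker histone genes H1foo, H1f0 and H1fx, the H3.3 genes H3f3a and H3f3b, and the H2A variant genes H2afz, H2afv, H2afx and H2afy. They were taken by gene symbol from the 37525 genes listed in 5 RNA count tables, and by distance to the gene start from 4 tables of chromatin peaks. Of the 9 symbols, 8 had a row in every RNA table, and H1foo had a row in the 4 embryo tables only. LoNA KO embryos of 18h, 20h, 22h and 24h were each set against control embryos of the same time, with 3 count columns a group at 18h, 20h and 22h and 4 at 24h. LoNA is a nucleolar long noncoding RNA, and the sample descriptions call the embryos 2-cell embryos. A further pair was LoNA KD 2C-like mESC against control 2C-like mESC, with 2 columns a group, a mouse embryonic stem cell state that the label likens to 2-cell embryos. All samples, controls included, carry the strain C57BL/6. Chromatin came from 24h embryos, LoNA KO against control, with antibodies to H3K4me3, H3K27me3 and AcNPM1 (acetylated nucleophosmin), and AcNPM1 was also profiled in LoNA KO embryos with p300 inhibitor against LoNA KO embryos without it. The labels give neither the allele and the breeding behind the KO nor the number of embryos in a library, and they do not say how the KD was made or how the 2C-like cells were obtained.

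Histone H1 proteins bind the linker DNA where it enters and leaves the nucleosome and help to compact chromatin. H1foo is the linker histone of the oocyte and early embryo, H1f0 is a replacement H1 that accumulates in slowly dividing and differentiating cells, and H1fx is a divergent somatic H1. H3f3a and H3f3b encode the same H3.3 protein, which is deposited outside S phase and replaces protamines and canonical H3 on the paternal genome after fertilization. H2afz and H2afv encode the H2A.Z proteins found beside active and poised promoters, H2afx encodes the H2A.X that is phosphorylated around DNA breaks, and H2afy encodes macroH2A, associated with repressed chromatin such as the inactive X chromosome. Their mRNAs can be polyadenylated, and the embryo can make them outside S phase.

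In mm10 the linker histone genes lie at chromosome 6, 115944938-115950236 (H1foo, plus strand), chromosome 15, 79028212-79030498 (H1f0, plus strand) and chromosome 6, 87980421-87981637 (H1fx, minus strand). The H3.3 genes lie at chromosome 1, 180800832-180813943 (H3f3a, minus strand) and chromosome 11, 116021912-116027962 (H3f3b, minus strand). The H2A variant genes lie at chromosome 3, 137864487-137866922 (H2afz, plus strand), chromosome 11, 6427229-6444443 (H2afv, minus strand), chromosome 9, 44334694-44336077 (H2afx, plus strand) and chromosome 13, 56073619-56136361 (H2afy, minus strand). Antisense genes lie at H1fx (Gm5577), H3f3a (H3f3aos), H2afz (Gm43403) and H2afy (AC164426.2), and since the use of strand in counting is not given in the sources used here, their reads cannot be told apart from those of the histone genes.

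At the chromatin level, 8 of the 9 genes carried a peak of H3K4me3, a mark of active and poised promoters, within 2000 bases of the gene start, and the oocyte linker histone H1foo carried none. Over all protein-coding genes of the RNA tables, 72.5% had such a peak. None of the 9 genes had a peak of the Polycomb mark H3K27me3 or of AcNPM1 in that window, in either AcNPM1 table, where 17.8% (H3K27me3), 15.8% (AcNPM1, KO over control) and 18.2% (AcNPM1, KO with inhibitor over KO) of protein-coding genes had one. The nearest H3K27me3 peak lay 5008 bases from the start of H1f0 and 194576 bases from that of H2afz. The tables list called peaks only, so a gene without a peak gives no read count.

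The promoters of 4 genes are shown, chosen after their values were seen: H1foo because it had no peak, H1f0 and H2afz because their RNA groups separated at more than 1 embryo time, and H3f3b because its promoter holds the TATAAA described next. They are RefSeq promoters of build GRCm38.p6, from 250 bases before to 50 bases after the start, printed 5′ to 3′ on the gene's own strand with every CpG in capitals. H1foo (RefSeq H1f8, chr6:115944681-115944980, plus strand), H1f0 (chr15:79027962-79028261, plus strand), H3f3b (chr11:116024455-116024754, minus strand) and H2afz (RefSeq H2az1, chr3:137864237-137864536, plus strand) read as follows.
H1foo: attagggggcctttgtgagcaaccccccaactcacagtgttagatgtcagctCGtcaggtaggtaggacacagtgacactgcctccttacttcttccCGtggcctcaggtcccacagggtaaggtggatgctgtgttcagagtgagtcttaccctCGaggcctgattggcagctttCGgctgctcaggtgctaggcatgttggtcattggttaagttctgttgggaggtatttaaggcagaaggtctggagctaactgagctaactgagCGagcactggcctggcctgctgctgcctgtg
H1f0: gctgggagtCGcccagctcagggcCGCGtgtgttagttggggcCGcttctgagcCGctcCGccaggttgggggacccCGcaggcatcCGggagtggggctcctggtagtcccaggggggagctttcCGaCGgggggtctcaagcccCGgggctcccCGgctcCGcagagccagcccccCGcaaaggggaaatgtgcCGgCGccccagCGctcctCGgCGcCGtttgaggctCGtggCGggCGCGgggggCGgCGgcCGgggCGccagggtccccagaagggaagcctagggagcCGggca
H3f3b: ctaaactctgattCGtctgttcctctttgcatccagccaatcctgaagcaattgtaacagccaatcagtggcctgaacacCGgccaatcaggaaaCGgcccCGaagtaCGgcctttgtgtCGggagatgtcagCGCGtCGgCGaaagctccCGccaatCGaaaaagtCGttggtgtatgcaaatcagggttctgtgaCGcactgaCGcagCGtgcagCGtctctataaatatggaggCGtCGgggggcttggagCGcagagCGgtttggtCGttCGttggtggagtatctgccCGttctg
H2afz: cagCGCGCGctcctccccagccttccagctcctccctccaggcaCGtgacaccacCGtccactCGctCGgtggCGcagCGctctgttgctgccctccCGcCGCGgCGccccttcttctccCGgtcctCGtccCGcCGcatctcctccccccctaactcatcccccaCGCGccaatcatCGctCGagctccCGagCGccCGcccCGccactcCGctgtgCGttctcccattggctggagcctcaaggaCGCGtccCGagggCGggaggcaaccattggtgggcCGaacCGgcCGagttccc

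RefSeq promoters were matched for 8 of the 9 genes. The H1foo promoter held 5 CpG, below the median of 7 over all 32851 RefSeq promoters of the same length, while the other 7 matched promoters held 24 (H3f3b) to 40 (H1fx), with 29 in H1f0 and 34 in H2afz. The pentamer CCAAT, searched on both strands, was found in 5 of the 8 promoters and in 37.4% of all promoters. It occurred 4 times in each of H3f3b and H2afv, 3 times in H2afz and 2 times in H1foo. TATAAA, searched on both strands, was found in H3f3b alone among the 8, beginning 27 bases before the start, and in 13.6% of all promoters. AAACACA, searched on both strands, was found in H3f3a alone among the 8 and in 7.18% of all promoters. The 3 motifs share no overlapping match in the promoters printed above.

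Within the 2000 base window the 8 genes held 12 H3K4me3 peaks, of which 4 had a higher and 8 a lower ratio of KO to control RPM, reads scaled to the total of their column. The deposited log2 ratios ran between -0.54 and 0.23 with a median of -0.10, beside a median of -0.12 over the 15649 promoter peaks of the table. None of the 12 passed a 2-fold ratio, which 0.0383% of all promoter peaks did. The table holds 1 read column for each condition, named by initials that were read as KO and control from the direction of the deposited ratio, so no ratio has a replicate check, and the intervals given next cover counting error only.

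The peak that covers the H2afz start, at chromosome 3, 137863753-137864658 of mm10, held 12.1 RPM in KO embryos and 14.5 in control embryos. Its log2 ratio was -0.25 (95% counting interval -0.40 to -0.11). A second peak inside H2afz, beginning 794 bases after the start, held 5.96 RPM in KO and 8.65 in control embryos, a log2 ratio of -0.54 (-0.74 to -0.33) that was the lowest of the 12. The H1f0 peak, at chromosome 15, 79028360-79028816, began 148 bases after the start and held 6.95 RPM in KO and 5.93 in control embryos. Its log2 ratio of 0.23 (0.016 to 0.44) was the highest of the 12. The peak over the start of H2afv held 17.7 RPM in KO and 20.5 in control embryos (log2 ratio -0.21, -0.33 to -0.082).

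The H3K4me3 peak over the start of H2afx held 23.5 RPM in KO and 23.0 in control embryos (log2 ratio 0.028, -0.083 to 0.14). A start of another gene, AC122428.1, lies within 500 bases of it. A second H2afx peak ended 1069 bases upstream of the start. It held 7.11 RPM in KO and 8.87 in control embryos (log2 ratio -0.32, -0.51 to -0.13). H2afy held 16.0 RPM in KO and 14.6 in control embryos, in a peak beginning 217 bases after the start. H1fx held 16.3 RPM in KO and 17.5 in control embryos in the peak over its start, and H3f3a 9.97 RPM in KO and 10.5 in control embryos in the peak ending 86 bases upstream of its start. The RefSeq start of H3f3a lies 338 bases further into the gene. The peak over that RefSeq start held 4.03 RPM in KO and 4.34 in control embryos (log2 ratio -0.11, -0.37 to 0.16). H3f3aos has a start in or within 500 bases of both H3f3a peaks. The peak within 2000 bases of H3f3b in the RNA tables' gene position lies at the start of the neighbouring gene Unk and held 19.8 RPM in KO and 25.7 in control embryos. The peak that covers the RefSeq start of H3f3b, 3458 bases further into the gene, held 10.96 RPM in KO and 12.3 in control embryos (log2 ratio -0.17, -0.33 to -0.010).

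**Figure D1:**
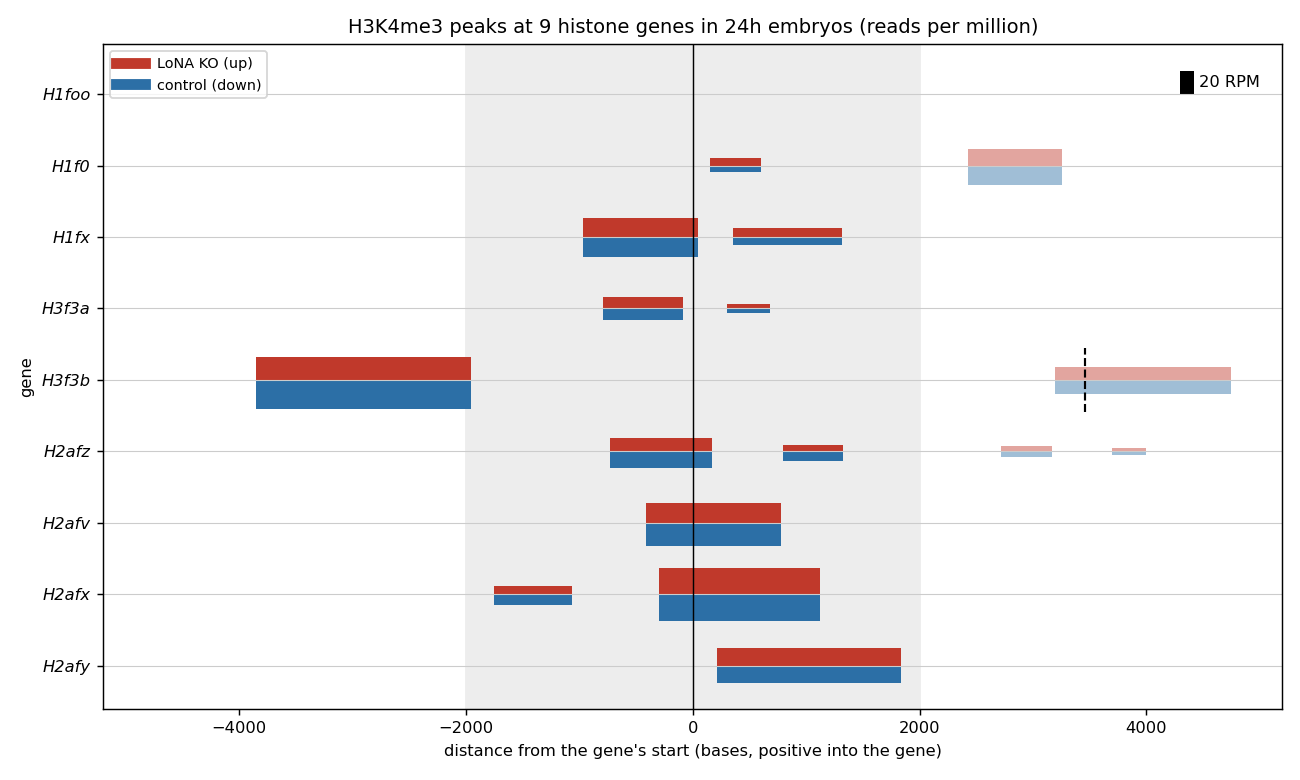
H3K4me3 peaks around the starts of the 9 genes in 24h embryos, by distance from the start in bases; bar height above the line is LoNA KO and below the line control, in RPM with a 20 RPM scale bar, the grey band marks 2000 bases either side, paler bars lie outside it, and the dashed line is the RefSeq start of H3f3b. H1foo has no peak, and KO and control heights differ by less than 2-fold at every peak shown.

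The RNA libraries held 12077497 to 18286944 counts in the 18h, 20h and 22h embryos, 13066794 to 16922914 in the 24h embryos and 16906302 to 17674190 in the mESC. Genes with counts numbered 7877 to 10167 per 24h library, summed as described next, against 17125 to 22370 per library at 18h, 20h and 22h. The 24h values below come from libraries with fewer genes detected at similar totals. At 24h the 4 columns of each group fell into pairs that correlated above 0.99 on log2 CPM (counts scaled to library size), against at most 0.592 between pairs, so each pair was summed and counted as 1 library. No row is named LoNA, so the targeted RNA was not checked by its name. The row Gm17382, picked out after its values were seen, had 0 to 3 counts in the KO and KD libraries of 18h, 20h, 22h and mESC. It had at least 382 in each control library of the same times and cells. Gm17382 has no row at 24h, in KO or control, so the 24h labels could not be checked by it. Maternal oocyte markers (8 genes, such as Gdf9 and Zp3) summed to 5182 to 9991 CPM in the KO and 5119 to 9218 CPM in the control embryos of 18h to 22h, and 2-cell markers (8 genes, such as Zscan4d and Zfp352) to 284 to 1286 CPM in KO and 246 to 995 CPM in control embryos. In the cells labelled 2C-like mESC the 2-cell markers summed to 2.56 to 2.80 CPM in KD and 5.84 to 6.30 CPM in control cells, so the 2-cell signature of the label was near absent in both. Replicates carry no statement of separate litters or cultures, so p-values measure the spread between these libraries, which may be technical. In such bulk libraries, fewer cells of a type and less RNA per cell cannot be told apart.

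In the embryos none of the 9 genes passed the threshold between LoNA KO and control at any time (edgeR quasi-likelihood test, Benjamini-Hochberg adjusted p under 0.05 over all genes tested). At 18h 8 members were tested, against a background of 0.00649% of 15416 genes called, at 20h 8 against 0.0138% of 14524, at 22h 8 against 0.00656% of 15251 and at 24h 7 against 0% of 7425. Without adjustment, p was under 0.05 for 793 genes at 18h, 532 at 20h, 481 at 22h and 383 at 24h. DESeq2 called none of the members at these times either when the 24h pairs were summed. The median log2 change of the members tested was 0.03 at 18h, 0.44 at 20h, 0.01 at 22h and 0.24 at 24h, beside -0.02, -0.03, -0.00 and 0.02 over all genes tested.

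H1foo varied widely among the libraries of most embryo groups. At 18h it had 238, 173 and 361 CPM in KO embryos and 699, 379 and 202 CPM in control embryos. The groups overlapped, and the log2 change of -0.73 (SE 0.44, adjusted p = 0.9999) was not called. At 20h it had 449, 540 and 557 CPM in KO embryos and 408, 362 and 445 CPM in control embryos. Each KO library at 20h lay above every control library, by a log2 change of 0.35 (SE 0.28, adjusted p = 0.998). Such separation of the 3 libraries a side, in either direction, held for 9.85% of all genes tested at 20h. At 22h H1foo had 416, 816 and 630 CPM in KO embryos and 575, 268 and 734 CPM in control embryos (log2 change 0.24, SE 0.37, adjusted p = 1). At 24h it had 308 and 62.7 CPM in KO embryos and 291 and 178 CPM in control embryos (log2 change -0.36, SE 1.03, adjusted p = 0.9999). These 24h groups overlapped.

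H1f0, the replacement linker histone, had the log2 change of largest size among the 9 genes in embryos, at 24h, and it did not pass the threshold. It had 8.15 and 4.53 CPM in KO embryos and 372 and 173 CPM in control embryos, so every KO library was far below every control library. The log2 change was -5.44 (SE 1.26, unadjusted p = 0.00363) and its adjusted p of 0.827 over 7425 genes did not pass. Separation of the libraries, in either direction, held for 33.3% of all genes at 24h, where 2 libraries stood on each side and the biological coefficient of variation was 158%. Before summing, the 4 KO columns held 35 to 61 counts of H1f0 and the 4 control columns 1254 to 3194. With these columns treated as separate libraries the change was -5.50 with an adjusted p of 0.00562 in edgeR and -5.59 with an adjusted p of 1.75e-19 in DESeq2. That setting counts columns correlating above 0.99 as replicates, so these p-values rest on too small a spread. It called 823 genes in all with edgeR and 3600 with DESeq2. The authors' deposited table gives a log2 fold change of -5.55. Leaving out a single library at a time kept the change between -5.98 and -4.76. Each such fit has a single library left in a group, so no p-value is given for it.

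Trophectoderm markers (Cdx2, Gata3, Krt8, Krt18, Eomes and Elf5) were also lower in the KO libraries at 24h. Of these 6 genes 3 had counts, and together they had 0 to 0.0697 CPM in KO libraries and 100 to 105 CPM in control libraries. None of the 3 passed the threshold. Maternal oocyte markers summed to 6288 to 8836 CPM in KO and 3226 to 4284 CPM in control embryos at 24h, and none of the 7 tested passed. Separation of the libraries, in either direction, held for 33.3% of all genes tested at 24h. The part of either list in the H1f0 difference was not tested.

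At 20h the log2 change of H1f0 had the opposite sign and did not pass either. It had 102, 121 and 89.1 CPM in KO embryos and 85.1, 43.8 and 54.8 CPM in control embryos, with no overlap and a log2 change of 0.77 (SE 0.35, unadjusted p = 0.0485, adjusted p = 0.998). Separation in either direction held for 9.85% of all genes tested at 20h. At 18h it had 48.6, 56.6 and 24.5 CPM in KO and 26.7, 43.3 and 31.1 CPM in control embryos, which overlapped (log2 change 0.36, SE 0.40). At 22h it had 51.8, 33.8 and 36.4 CPM in KO and 56.9, 49.5 and 50.4 CPM in control embryos, which also overlapped (log2 change -0.36, SE 0.26). H1fx, the third linker histone, was near the floor in embryos, with 0 to 10 counts in each KO library and 0 to 11 in each control library, and was not tested there.

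Neither H3.3 gene passed the threshold between KO and control at any time. H3f3b had 1935, 2316 and 3452 CPM in KO and 2899, 2566 and 2755 CPM in control embryos at 18h, and 2240, 1828 and 2032 CPM in KO and 2311, 2606 and 2142 CPM in control embryos at 20h. At 22h it had 2251, 2930 and 3366 CPM in KO and 3497, 2107 and 3056 CPM in control embryos. The groups overlapped each time, and the log2 changes of -0.09 (18h), -0.21 (20h) and -0.02 (22h) had standard errors of 0.25 to 0.29. At 24h H3f3b had 2946 and 2014 CPM in KO and 883 and 2426 CPM in control embryos (log2 change 0.57, SE 0.60).

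H3f3a, which encodes the same protein, had 123, 56.4 and 24.3 CPM in KO and 60.4, 67.8 and 67.0 CPM in control embryos at 18h. At 20h it had 125, 161 and 259 CPM in KO and 122, 83.9 and 135 CPM in control embryos, with a log2 change of 0.67 (SE 0.36, unadjusted p = 0.0845). At 22h it had 90.4, 119 and 104 CPM in KO and 113, 102 and 123 CPM in control embryos. Its groups overlapped at all 4 times, including 24h with 3.62 and 40.2 CPM in KO and 30.6 and 9.72 CPM in control embryos. The tables also list the processed copies H3f3a-ps1 and H3f3a-ps2 and the H3f3c gene, so reads of these near-identical genes may be shared with H3f3a.

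**Figure D2:**
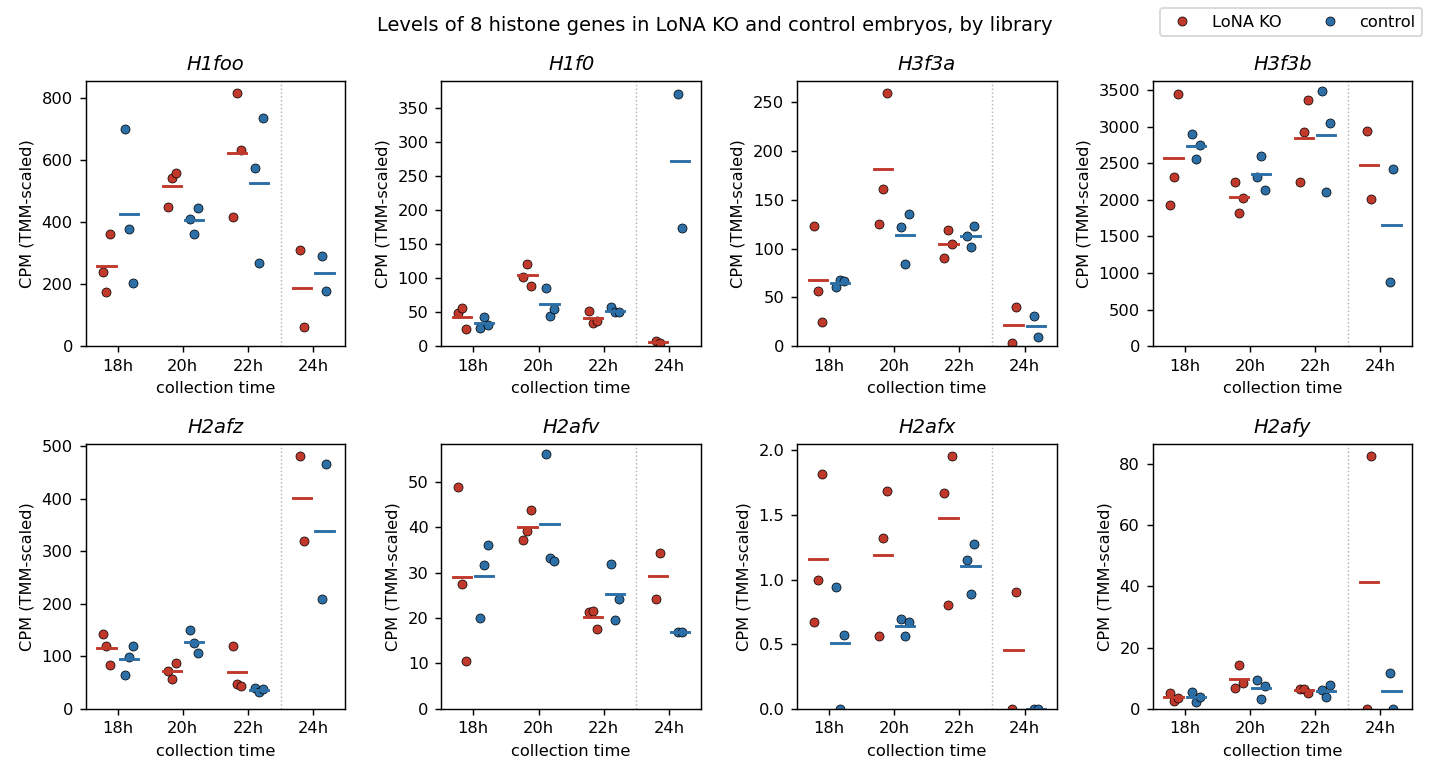
Levels of 8 of the 9 genes in embryos by collection time, in TMM-scaled CPM on a linear axis from 0 (H1fx, near 0, is left out); each point is 1 library, LoNA KO left and control right within each time, and bars are group means. H1f0 at 24h is at 8.15 CPM or less in both KO libraries and at 173 CPM or more in both control libraries; the dotted line sets 24h apart because its libraries are 2 a group and its table was scaled on its own.

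H2afz, an H2A.Z gene, passed the threshold at no time, and its log2 changes at 20h and 22h had opposite signs. At 20h it had 72.1, 56.3 and 88.1 CPM in KO embryos and 151, 125 and 107 CPM in control embryos. Every KO library was below every control library, with a log2 change of -0.82 (SE 0.32, unadjusted p = 0.0244, adjusted p = 0.998). Separation in either direction held for 9.85% of all genes tested at 20h. At 22h it had 120, 47.5 and 42.5 CPM in KO embryos and 40.5, 31.3 and 38.0 CPM in control embryos. Every KO library was above every control library, with a log2 change of 0.93 (SE 0.39, unadjusted p = 0.0351, adjusted p = 1), and separation in either direction held for 9.25% of all genes at 22h. Without KO library 1 the 22h change was 0.30. In the joint fit of the 18h, 20h and 22h libraries the KO difference at 22h less that at 20h was 1.72 on the log2 scale (SE 0.51, unadjusted p = 0.00295), with an adjusted p of 0.739 over 19515 genes. At 18h H2afz had 142, 119 and 84.0 CPM in KO and 65.0, 98.9 and 119 CPM in control embryos, and at 24h 483 and 321 CPM in KO and 209 and 467 CPM in control embryos, and both pairs of groups overlapped.

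Across the 3 times the KO difference of none of the 8 tested members differed by the joint interaction test (edgeR, 0% of 19515 genes called, 1203 at an unadjusted p under 0.05). The smallest unadjusted p among the members was 0.00997, for H2afz, with an adjusted p of 0.786. DESeq2 called 39 genes in this test and none of the members.

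H2afv, the second H2A.Z gene, had 37.3, 39.2 and 43.8 CPM in KO and 56.1, 33.2 and 32.6 CPM in control embryos at 20h, and its groups overlapped at 18h, 20h and 22h. At 24h it had 24.3 and 34.2 CPM in KO and 17.0 and 16.9 CPM in control embryos, which did not overlap (log2 change 0.77, SE 2.27, adjusted p = 0.9999). Such separation, in either direction, held for 33.3% of all genes tested at 24h. At 18h no member had separate groups, beside 12.8% of all genes tested. H2afx was low, at 0.566 to 1.95 CPM in the KO embryos and 0 to 1.27 CPM in the control embryos of 18h to 22h. At 24h H2afx had 0 and 15 counts in the KO libraries and 0 in both control libraries, which allows up to 0.180 and 0.202 CPM there (3 counts a library), and it was not tested.

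H2afy had 2.45 to 14.4 CPM in KO and 2.07 to 9.56 CPM in control embryos of 18h to 22h, and the groups overlapped each time. At 24h its libraries disagreed within each group, with 1 and 1365 counts in the KO libraries and 193 and 1 counts in the control libraries. The H2afy log2 change of 2.81 there had a standard error of 3.49.

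**Figure D3:**
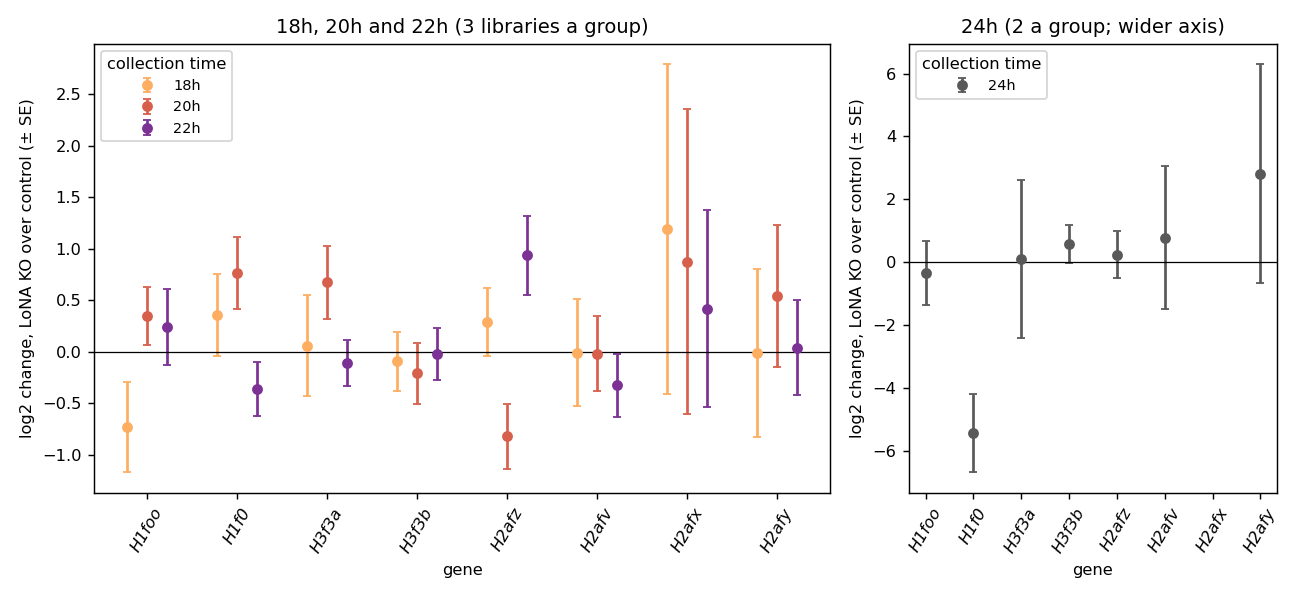
Log2 change of LoNA KO over control with its standard error for 8 genes, at 18h, 20h and 22h (left, 3 libraries a group) and at 24h (right, 2 libraries a group, with a wider axis; H2afx was not tested there). H2afz lies at -0.82 at 20h and at 0.93 at 22h, and H1f0 at -5.44 at 24h; no change shown passed the adjusted threshold.

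In control embryos the H2A.Z gene H2afz was lower at 22h than at 18h and 20h. At 24h, scaled separately and outside the joint fit, it had 209 and 467 CPM in control embryos. In the joint fit its mean level was 95.4 ± 27.6 CPM at 18h, 130 ± 22.8 CPM at 20h and 35.0 ± 4.58 CPM at 22h in control embryos (SD, n = 3 each). The log2 change at 22h relative to 20h was -1.90 (SE 0.37, edgeR adjusted p = 0.0117), and at 22h relative to 18h it was -1.45 (SE 0.37, edgeR adjusted p = 0.048). It was the only member called in these 2 steps, in which 2.74% and 1.59% of 19515 genes were called. In KO embryos H2afz averaged 118 ± 32.2 CPM at 18h, 75.6 ± 17.6 CPM at 20h and 66.9 ± 41.2 CPM at 22h (SD, n = 3 each), and its step at 22h relative to 20h, -0.18 (SE 0.36, edgeR adjusted p = 0.829), was not called. Whether the 2 steps differ is the contrast of 1.72 given above, which did not pass. Leaving out a single library kept the control step between -2.00 and -1.69, with an adjusted p of up to 0.0701, and it passed no longer without control library 1 of 20h or without control library 1 or 2 of 22h. The step at 22h relative to 18h passed no longer in 9 of the 18 single leave-outs, where the adjusted p reached 0.259.

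H1f0 fell in KO embryos at 22h relative to 20h, by a log2 change of -1.49 (SE 0.34, edgeR adjusted p = 0.00996). In the joint fit it averaged 44.2 ± 17.3 CPM at 18h, 109 ± 15.9 CPM at 20h and 38.9 ± 9.25 CPM at 22h in KO embryos (SD, n = 3 each). In this step 8.26% of genes were called, and H1f0 was the only member among them. The call was lost without KO library 2 of 20h or KO library 2 or 3 of 22h, with adjusted p between 0.0581 and 0.0681 and changes between -1.36 and -1.31. In control embryos H1f0 averaged 34.2 ± 9.19, 62.5 ± 22.2 and 49.9 ± 3.89 CPM at 18h, 20h and 22h (SD, n = 3 each), with a step of -0.33 (SE 0.34, edgeR adjusted p = 0.680) at 22h relative to 20h. The difference between the KO and control steps, -1.16 on the log2 scale (SE 0.48, edgeR adjusted p = 0.771), did not pass.

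No member was called at 20h relative to 18h in control embryos (0.876% of genes) or in KO embryos (1.12%), nor at 22h relative to 18h in KO embryos (3.96%). DESeq2 called 2 members at 20h relative to 18h in KO embryos, among 1674 genes called in that step, against 218 with edgeR. H1f0 was among the 2 (log2 change 1.29, DESeq2 adjusted p = 0.00599), while its edgeR log2 change of 1.30 missed the threshold (edgeR adjusted p = 0.0654). Each time is a table of its own, so time and table cannot be told apart. The 24h libraries stayed out of this fit.

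The genes most like H1foo across the 18 embryo libraries of 18h to 22h, by Pearson correlation of log2(CPM + 1) among 7617 genes with a mean of at least 10 CPM, were Sumo2 (r = 0.88), Abhd11 (0.87), Spata7 (0.85), Rbm15 (0.83) and Slc25a17 (0.81). Those most like H2afz were the predicted genes Gm5039 (0.82), Gm11546 (0.80), Gm4027 (0.80) and Gm21936 (0.80) and the metallothionein gene Mt1 (0.79). These r values are descriptions over libraries that share times, tables and scaling. Among the members themselves, H1f0 and H3f3a followed each other most closely (r = 0.71), and H1f0 and H3f3b ran most opposite (r = -0.67) over the same 18 libraries.

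In the mESC the 8 genes with a row had at least 92 counts in each library (the lowest for H1fx), similar between the libraries of a group. Of the 8, 6 were called between KD and control, 4 higher and 2 lower. The background was 74.2% of 16406 genes called, so this count is near that of all genes. The 2 libraries of each group correlated above 0.99 on log2 CPM, the biological coefficient of variation was 3.39%, and p-values rest on that small spread.

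H1f0 was the member with the largest difference in the mESC, with 731 and 758 CPM in KD cells and 108 and 119 CPM in control cells. The KD libraries lay 6.57-fold higher (log2 change 2.72, SE 0.05, edgeR adjusted p = 5.05e-22). H1fx, the divergent somatic linker histone, had 21.1 and 26.5 CPM in KD and 6.47 and 5.27 CPM in control cells, 4.05-fold higher (edgeR adjusted p = 1.53e-11). H3f3b had 1039 and 1069 CPM in KD and 470 and 453 CPM in control cells, 2.28-fold higher (edgeR adjusted p = 3.24e-17). H3f3a, with 188 and 192 CPM in KD and 148 and 156 CPM in control cells, was 1.25-fold higher (edgeR adjusted p = 7.56e-07). The linker and H3.3 genes with a row in the mESC table were thus all called higher in KD cells, as were 6378 of all 16406 genes tested. With 74.2% of genes called in either direction, nothing particular to these genes is read from this.

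Of the H2A variant genes, H2afv had 86.9 and 88.3 CPM in KD and 98.7 and 107 CPM in control cells (log2 change -0.23, edgeR adjusted p = 0.000387), and H2afx had 141 and 146 CPM in KD and 182 and 187 CPM in control cells (log2 change -0.36, edgeR adjusted p = 1.32e-07). Both were lower in KD cells, as were 5799 of all 16406 genes tested. H2afz, with 676 and 687 CPM in KD and 665 and 669 CPM in control cells, was not called (log2 change 0.03, 95% interval -0.05 to 0.11). H2afy, with 149 and 156 CPM in KD and 148 and 164 CPM in control cells, was not called either (log2 change -0.03, 95% interval -0.14 to 0.07). H1foo has no row in the mESC table, which is read as 0 counts and allows up to 0.172 to 0.179 CPM a library (3 counts).

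Pluripotent stem cell markers (8 genes, among them Pou5f1, Nanog and Sox2) summed to 1987 to 2024 CPM in KD and 4033 to 4044 CPM in control cells, and all 8 were lower in KD cells by the edgeR test. Fibroblast markers summed to 213 to 214 CPM in KD and 503 to 523 CPM in control cells, with 5 of 6 lower. Their part in the differences of the histone genes was not tested.

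**Figure D4:**
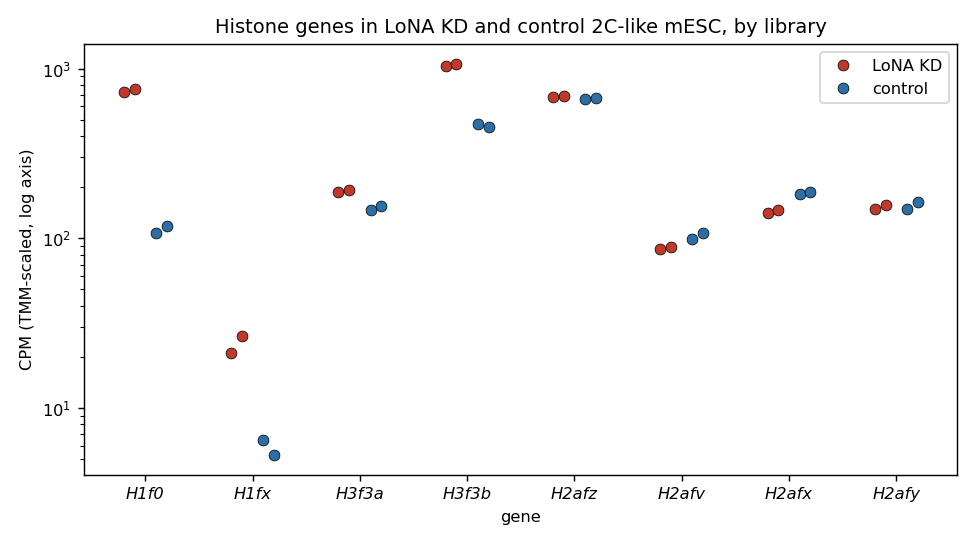
Levels of the 8 histone genes with a row in the mESC table, in TMM-scaled CPM on a log axis; each point is 1 library, LoNA KD left and control right for each gene. The KD libraries of H1f0 lie at 731 and 758 CPM and the control libraries at 108 and 119 CPM, while those of H2afz lie between 665 and 687 CPM in both groups.

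Genes that handle these histones were called in both directions in the mESC, and none was called in embryos. The counts of the 6 lists given next stand beside the 74.2% of all genes called in the mESC, and nothing particular to a list is read from them. Of the 10 genes for H3.3 deposition all were tested in the mESC, with 4 higher and 4 lower in KD cells, 8 called of 10, and a median log2 change of -0.05, beside 0.01 over all genes tested. The histone chaperone genes Asf1b (0.74), Asf1a (0.43), Hira (0.34) and Ubn1 (0.15) rose by these log2 changes. Atrx, of the ATRX-DAXX H3.3 complex, fell by 0.77, Nasp, an H3-H4 chaperone, by 0.73, Ubn2 by 0.65 and Cabin1 by 0.11 on the log2 scale.

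Of 12 genes for H2A.Z deposition and removal, 4 rose and 6 fell in KD cells, against the same background of 74.2% (median log2 change -0.13). Znhit1 (0.94), Anp32e (0.25), Vps72 (0.23) and Yeats4 (0.22) rose, of which Anp32e is the chaperone that removes H2A.Z. Srcap, the ATPase that deposits H2A.Z, fell by 0.82, Ino80 by 0.44, Ep400 by 0.37, Kat5 by 0.36, Ruvbl2 by 0.32 and Ruvbl1 by 0.12 on the log2 scale. Srcap was low, averaging 1.41 CPM in KD and 2.49 CPM in control cells. Of 11 genes for H2A.X signalling, 4 rose and 6 fell, again beside 74.2% of all genes called (median log2 change -0.19). Eya1 fell by 1.27, the H2A.X kinase genes Atm by 0.93, Prkdc by 0.91 and Atr by 0.83, the H2A.X reader Mdc1 by 0.71 and Trp53bp1 by 0.19 on the log2 scale. Rnf8 (0.67), Eya3 (0.29), Rnf168 (0.16) and Baz1b (0.14) rose.

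Of 10 partners of macroH2A and of linker histones, 5 rose and 3 fell in KD cells, beside 74.2% of all genes called (median log2 change 0.19). Npm2 (2.36), the egg nucleoplasmin, rose at a level of 0.913 ± 0.0558 CPM in KD and 0.172 ± 0.0811 CPM in control cells (SD, n = 2 each), and Lmna (1.02), Nap1l1 (0.55), Dnajc9 (0.43) and Nap1l4 (0.35) rose too. Parp1 fell by 0.51, Npm3 by 0.21 and Npm1 by 0.08 on the log2 scale. Against that background, 2 of 4 replication-dependent linker histones tested rose, Hist1h1c (1.05) and Hist1h1d (0.92), and none fell. Hist1h1d was low, averaging 1.85 CPM in KD and 0.974 CPM in control cells. Of 5 other variants tested 3 were called: Hist3h2ba (2.30) rose, while the macroH2A gene H2afy2 had 19.6 ± 2.34 CPM in KD and 39.2 ± 0.211 CPM in control cells (SD, n = 2 each; edgeR adjusted p = 7.5e-10) and the centromeric H3 gene Cenpa fell by 0.45 on the log2 scale.

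In the embryos 0 genes of these 6 lists were called at any time. One gene of each list is given here, the one with the highest mean CPM, a choice not corrected for gene length. In the linker partner list the nucleolar chaperone Npm1 had 2482 ± 151 CPM in KO and 1334 ± 186 CPM in control embryos at 18h (log2 change 0.89, edgeR adjusted p = 0.744) and 998 ± 106 CPM in KO and 1123 ± 317 CPM in control embryos at 22h (log2 change -0.17). Npm2, of the same list, had at 20h 3088 ± 753 CPM in KO and 2020 ± 688 CPM in control embryos (log2 change 0.61). Asf1b, of the H3.3 deposition list, had at 20h 233 ± 92.3 CPM in KO and 644 ± 418 CPM in control embryos (log2 change -1.46, edgeR adjusted p = 0.998; SD, n = 3 each throughout). Its log2 change was -0.36 at 18h and, with the opposite sign, 0.31 at 22h. Hist1h1a, of the linker histones, had at 18h 47.8 ± 34.9 CPM in KO and 16.9 ± 1.58 CPM in control embryos (edgeR adjusted p = 0.805). The direction of the Hist1h1a difference turned at the later times, with a log2 change of -0.16 at 20h and -0.41 at 22h. The gene given for the H2A.Z list was Ep400 at 18h and 22h (log2 change -0.04 and 0.20) and Vps72 at 20h (-0.002). That for the H2A.X list was Rnf168 at 18h, 20h and 22h (0.61, 0.28 and 0.14), and that for the other variants Cenpa at 18h, 20h and 22h (0.01, -0.16 and 0.46). At 24h the genes so chosen were Npm1 (log2 change 0.26), Dek (0.42), Ruvbl1 (-0.73), Eya1 (-0.51) and Cenpa (-0.92), with 2 libraries a group.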

How the data were processed

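The RNA tables, per the file headers, hold raw read counts per Ensembl gene, which the authors deposited with a mean signal (baseMean, counts over size factors) and a fold change given as a ratio, or, for 24h embryos, as a log2 value. Each peak table, as deposited, holds read counts per peak, total reads of each column and a log2 ratio by the authors of reads scaled by those totals. Per the submitters' processing notes, Bowtie2 2.2.3, HISAT2 2.1.0 and HTSeq 0.6.0 are named for RNA, and bcl2fastq 2.2, Bowtie2 2.1.0 and MACS2 2.1.1 for chromatin, with mm10 and no roles; whether peaks were called on pooled samples is not given in the sources used here. The labels list more RNA samples than the tables have count columns, and columns were matched to groups only. The columns of the H3K4me3 and H3K27me3 tables carry initials, read as KO and control from the direction of the deposited ratio and the table's title.

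Counts were fitted per table with edgeR 4.0.16 (TMM, filterByExpr, glmQLFTest; R 4.3.3, limma 3.58.1), Benjamini-Hochberg adjusted over all genes, at 0.05. At 24h, columns correlating above 0.99 were summed. A joint fit of 18 libraries gave time steps and the interaction. CPM are TMM-scaled per table. Gene starts came from the RNA tables, and peaks within 2000 bases were used, with exact binomial 95% intervals (SciPy 1.17.1). Tests were checked on simulated counts. DESeq2 1.42.0, RLE scaling, no low-count filter and leave-outs were the alternatives. All 9 members are named throughout, list genes where called, otherwise the gene of a list with the highest mean CPM. The members and lists were chosen with earlier results of these data known. Symbols are those of the tables; RefSeq promoters are of GRCm38.p6. CPM are not corrected for gene length, so that choice does not rank transcript abundance, and no other levels of different genes are compared.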

Additional observations from a re-analysis of the deposited data

Results flagged for a closer look

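H1f0 had log2 changes of opposite sign between LoNA KO and control embryos at 2 times, neither of which passed the threshold. The change was 0.77 at 20h (edgeR adjusted p = 0.998), where every KO library lay above every control library, and -5.44 at 24h (edgeR adjusted p = 0.827), where every KO library lay below every control library. Separation in either direction held for 9.85% of all genes tested at 20h and 33.3% at 24h. The 24h libraries were scaled in a table of their own with pairs of columns summed, and the difference between these changes was not tested.

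H2afz also had changes of opposite sign without overlap, -0.82 at 20h (edgeR adjusted p = 0.998) and 0.93 at 22h (edgeR adjusted p = 1), and neither passed. Separation held for 9.85% of all genes at 20h and 9.25% at 22h, and without KO library 1 the 22h change was 0.30. The difference of 1.72 between these changes (SE 0.51, edgeR unadjusted p = 0.00295) had an adjusted p of 0.739 over 19515 genes and did not pass.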

How the results depend on the processing

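No gene of the 9 that was called in the mESC lost its call with DESeq2, which also called 6. Low-count filtering and the tool changed the counts of all genes called. DESeq2 called 98 genes at 18h, 32 at 20h, 4 at 22h and 1405 at 24h, against 1, 2, 1 and 0 with edgeR, and without a filter the counts were 72, 15, 33 and 3. With 24h columns kept as separate libraries edgeR called 823 genes and DESeq2 3600, in each case with 1 member, H1f0. In the steps of control embryos (20h over 18h, 22h over 20h, 22h over 18h) DESeq2 called 1118, 1686 and 1078 genes and edgeR without a filter 554, 996 and 709, against 171, 534 and 310. In those of KO embryos DESeq2 called 1674, 2870 and 1915, against 218, 1612 and 772, and without a filter 836 were called at 20h over 18h and 1258 at 22h over 18h. The interaction gave 39 genes with DESeq2 and 86 without a filter, against 0. Members called in KO embryos were 3 without a filter and 2 with DESeq2 at 20h over 18h, 2 with DESeq2 at 22h over 20h and 1 without a filter at 22h over 18h, against 0, 1 and 0. The cause of these shifts was not tested.

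Same-numbered columns did not pair (correlation of deviations -0.127 to 0.114). With the replicate block by the last digit of the column name H2afz was -0.83 at 20h and 0.77 at 22h, and no member gained or lost a call. The sign turned under the block for H3f3a at 18h (-0.24), H2afy at 18h (0.032) and H2afv at 20h (0.026), and for H2afv at 20h without a filter (0.014). No paired analysis was possible at 24h because the column numbers of the groups are not shared as sets.

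Leaving out 1 library gave 1 to 2 called genes at 20h and at 22h and 0 to 39 at 24h, with 0 to 1 members at 24h. In control embryos it gave 0 to 305 genes (20h over 18h), 45 to 661 (22h over 20h) and 8 to 393 (22h over 18h), and in KO embryos 4 to 677, 776 to 1757 and 247 to 972, with 0 to 1 members in each of these steps but the first. It turned the sign of small log2 changes: H1foo at 22h (-0.076 to 0.56) and 24h (-1.96 to 0.46), H2afv at 18h (-0.63 to 0.36) and 20h (-0.16 to 0.33), H2afy at 18h (-0.33 to 0.35), 22h (-0.19 to 0.27), 24h (-6.14 to 9.09) and in mESC (-0.10 to 0.045), H2afz at 24h (-0.21 to 0.83), H3f3a at 18h (-0.70 to 0.43) and 24h (-2.40 to 1.17), and H3f3b at 18h (-0.40 to 0.066) and 22h (-0.20 to 0.14). Among steps it turned H1f0 in KO embryos at 22h over 18h (-0.47 to 0.050), H1f0 in control embryos at 22h over 20h (-0.52 to 0.061) and H2afz in KO embryos at 22h over 20h (-0.76 to 0.14).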
